A study of Homo sapiens with 2 samples.

Results

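Genes of matrix turnover, 7 matrix metalloproteinases (MMPs) and 3 tissue inhibitors of metalloproteinases (TIMPs), were followed in A549 cells with and without TGF-β. The 10 members were MMP1, MMP2, MMP7, MMP9, MMP10, MMP14, MMP24, TIMP1, TIMP2 and TIMP3, and all probe sets whose annotated symbol was one of these were taken. The arrays held 19775 genes with a probe set that named a single gene. MMPs are zinc-dependent endopeptidases that are made as inactive precursors and cut collagens, laminins, fibronectin and many proteins of the cell surface. TIMPs bind the active site of MMPs, and TIMP2 also takes part, with MMP14 at the plasma membrane, in activating the precursor of MMP2. In lung epithelium both families are known for their part in wound repair and in the remodelling of the basement membrane.

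A549 is an established line of human lung carcinoma cells, here grown in medium with fetal calf serum. The control array held RNA from cells without added TGF-β and the TGF-β array RNA from cells kept for 12 h with TGF-β at 1 ng/ml, with no other treatment named for either. There was 1 array per condition, so the spread between cultures is not known, nothing was tested, and the low number of arrays limits how precise each value is. In RNA from whole cultures, a lower signal in every cell and a smaller number of expressing cells cannot be told apart.

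Signals are MAS5 intensities on a linear scale, where a probe set is a group of short probes against a transcript. A signal was called background when it did not exceed the highest of 27 probe sets for transcripts of Bacillus subtilis, which set the limit at 45.8 for control and at 56.6 for TGF-β. Where only the control signal was at background, the fold was taken against 45.8 and stands as a lower bound. Where only the TGF-β signal was, it was taken against 56.6 in the same way. Where both were at background, no fold is given. A gene was measured when a probe set of it had a mean signal over both arrays of at least 48.7, the median over probe sets, and its brightest such probe set represented it. A measured gene was called higher or lower at a difference of 2-fold or more between its signals, a limit of size that says nothing of error. Of markers for cell types, all 7 epithelial markers with a probe set, among them KRT8, KRT18, EPCAM and CDH1, were above background on both arrays. Of 4 alveolar type II markers, ABCA3, SFTPB and SFTPC were above background on both arrays, with signals between 58.9 and 184, and NKX2-1 was at background on both. COL3A1, LUM and PDGFRB of fibroblasts, PTPRC of leukocytes and CDH5 and VWF of endothelium were at background on both, although single markers of fibroblasts (DCN, FBLN1), leukocytes (CD14, CD3E) and endothelium (PECAM1) were above background in a probe set. The summed signal went from 379 to 250.4 for the 7 fibroblast markers, from 363 to 238 for the 6 leukocyte markers and from 93.2 to 121 for the 5 endothelial markers, and the part of other cells in the results was not tested. Of 12 measured genes known to respond to TGF-β, 8 were called higher, and ID2 alone was called lower. All 12 had both signals above background, and of all such genes 2.94% were called higher and 1.35% lower. The study had picked CCN2, COL1A1 and THBS1 among the 8 from these arrays, so they are not independent evidence of a direction.

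Of the 10 members, 9 were measured, and 5 of the 9 were called higher, namely MMP2, MMP9, MMP10, TIMP2 and TIMP3. Over all 12375 measured genes 3.94% were called higher and 2.96% lower, and none of the members was called lower. MMP10 and TIMP3 passed the filter only through the TGF-β array, so they had to differ, and the count of 5 is a description. The other 7 measured members had a control signal that reached the filter alone, and 3 of them (MMP2, MMP9 and TIMP2) were called higher. Both signals of these 7 were above background, and among the 11513 genes of that kind 2.94% were called higher and 1.35% lower. The median log2 fold change of the 9 measured members was 1.11 and that of the 7 with both signals above background 0.29, beside medians of -0.03 over all measured genes and -0.03 over those with both signals above background. MMP1 did not reach the filter. The members had 21 probe sets in all. Of these, 11 had both signals above background, 6 were at background in the control only, and 4 were at background on both arrays.

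**Figure D1:**
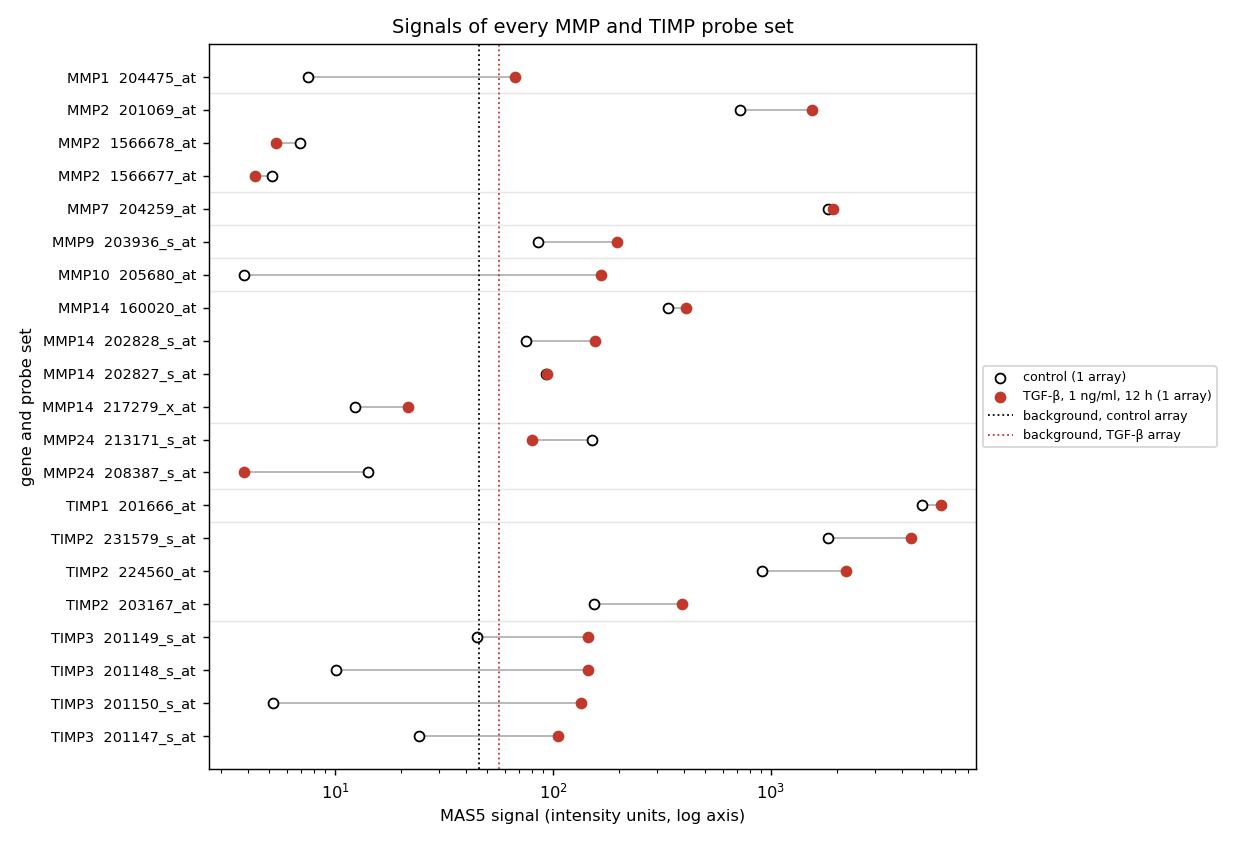
MAS5 signals (x axis, intensity units on a log axis) of the 21 MMP and TIMP probe sets (y axis), with open points for the control array, red points for the TGF-β array and dotted lines at the background of each array. Each point is 1 array. All 3 TIMP2 probe sets shift to the right by a like distance, all 4 TIMP3 probe sets go from the control background to between 105 and 145, and the MMP7 points nearly coincide.

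The promoters of 6 members were in the RefSeq table used here, which is of the assembly GRCh38.p14 and gives 250 bases before the transcription start and 50 from it. The members in the table were MMP7, MMP10, MMP14, MMP24, TIMP1 and TIMP3; MMP1, MMP2, MMP9 and TIMP2 were not matched. Letters were searched on both strands for TGANTCA (the AP-1 site), CAGAC (the core of the Smad element), AGGAAG (a site of ETS factors), TATAAA (the TATA box) and GGGCGG (the GC box). The promoters below are shown because MMP10 and MMP7 share the AP-1 and TATA letters at almost the same place while their signals moved differently, and because TIMP3 and TIMP1 share GC boxes and moved differently too. Capitals mark the AP-1, Smad core, TATA and GC box letters on either strand. MMP7 lies at chr11:102530698-102530997 and MMP10 at chr11:102780579-102780878, both on the minus strand. TIMP1 lies at chrX:47582186-47582485 and TIMP3 at chr22:32801455-32801754, both on the plus strand.
MMP10: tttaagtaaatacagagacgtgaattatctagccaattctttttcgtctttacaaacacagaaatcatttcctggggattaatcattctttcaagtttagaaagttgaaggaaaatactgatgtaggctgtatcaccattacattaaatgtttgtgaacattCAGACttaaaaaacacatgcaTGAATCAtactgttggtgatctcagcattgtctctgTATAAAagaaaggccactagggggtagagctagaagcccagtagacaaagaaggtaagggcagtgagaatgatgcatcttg
MMP7: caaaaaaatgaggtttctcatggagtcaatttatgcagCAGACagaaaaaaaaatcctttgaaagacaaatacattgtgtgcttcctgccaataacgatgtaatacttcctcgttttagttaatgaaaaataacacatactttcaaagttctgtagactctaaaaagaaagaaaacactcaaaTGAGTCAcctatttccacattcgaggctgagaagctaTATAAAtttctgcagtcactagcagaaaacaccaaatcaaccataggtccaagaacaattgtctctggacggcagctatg
TIMP3: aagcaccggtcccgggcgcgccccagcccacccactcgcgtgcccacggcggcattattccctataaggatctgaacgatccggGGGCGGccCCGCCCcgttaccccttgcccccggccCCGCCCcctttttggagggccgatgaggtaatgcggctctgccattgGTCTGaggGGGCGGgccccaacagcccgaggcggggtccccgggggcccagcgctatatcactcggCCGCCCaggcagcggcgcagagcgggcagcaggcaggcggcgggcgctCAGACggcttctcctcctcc
TIMP1: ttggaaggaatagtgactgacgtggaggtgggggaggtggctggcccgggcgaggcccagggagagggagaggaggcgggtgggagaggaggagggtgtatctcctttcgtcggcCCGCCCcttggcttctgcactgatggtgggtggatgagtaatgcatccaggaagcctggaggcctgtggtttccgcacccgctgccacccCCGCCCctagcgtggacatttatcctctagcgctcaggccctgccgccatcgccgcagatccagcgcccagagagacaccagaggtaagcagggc

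The AP-1 letters began at position -67 in both MMP10 and MMP7, counted with the transcription start as +1, and no other of the 6 promoters held them. Of 35116 promoters in the table, 7.71% held the AP-1 letters and 11.53% the TATA letters, which began at -31 in MMP10 and at -30 in MMP7. The Smad core stood at -88 in MMP10 and at -212 in MMP7, where it was part of the longer CAGACA. The longer form was in 16.88% of all promoters and in no other of the 6, and the core itself was in 5 of the 6 and in 45.26% of all promoters. TIMP3 held 5 GC boxes and TIMP1 held 2, and this motif was in 44.95% of all promoters. ETS letters were found in MMP7 and TIMP1 and in 33.65% of all promoters. The GC content was 35.7% in MMP7 and 36.3% in MMP10 but 72.7% in TIMP3 and 65.0% in TIMP1. A match of letters is a description and not a binding site. Only exact letters were searched, so a promoter without a match may still hold a variant form of the site.

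**Figure D2:**
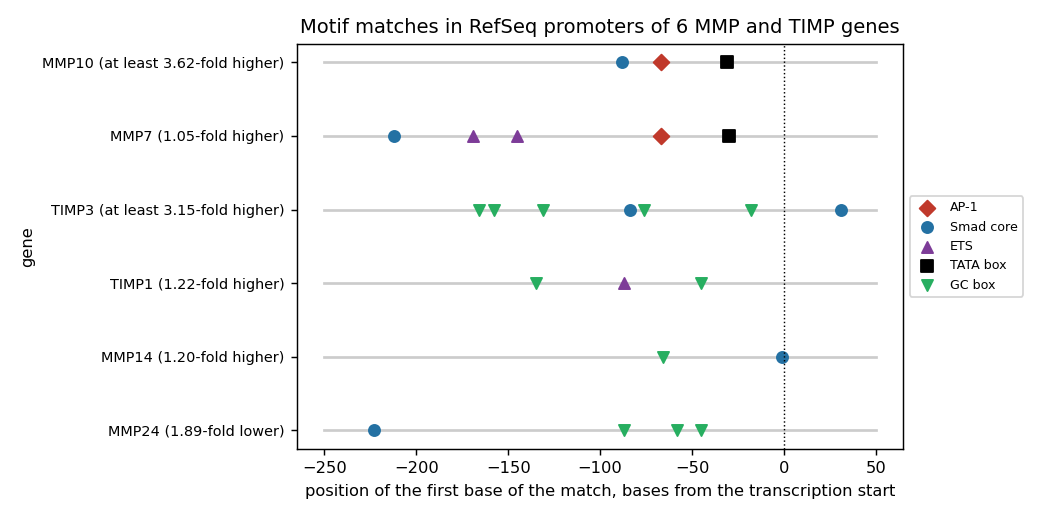
Positions of motif matches (x axis, bases from the transcription start) in the RefSeq promoters of 6 members (y axis, with the TGF-β over control change of the gene). Symbols stand for the AP-1, Smad core, ETS, TATA and GC box letters; MMP10 and MMP7 carry AP-1 letters at -67 and TATA letters at -31 and -30, and the other 4 promoters carry GC boxes.

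Among the TIMPs, TIMP2, the inhibitor that partners MMP14 in MMP2 activation, was more than 2-fold higher in each of its 3 probe sets. The brightest had a signal of 1818 without and 4391 with TGF-β, a 2.41-fold difference. The second read 912 and 2202, again 2.41-fold. The dimmest read 154 and 391.6, which is 2.54-fold. The 3 probe sets thus gave nearly the same fold over a wide range of brightness. The log2 fold change of the brightest was 1.27, where probe sets of that brightness had a spread of 0.25. This spread is the scaled median absolute deviation of log2 fold changes among the 500 probe sets nearest in brightness, and it does not stand for the error between cultures. Among the 11513 genes with both signals above background, TIMP2 had the rise ranked 194.

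TIMP3, an inhibitor that is held in the extracellular matrix, had 4 probe sets. Its signals were 44.9 and 144 in the brightest probe set. They were 10.1 and 145 in the second, 5.20 and 135 in the third and 24.1 and 105 in the last. All 4 control signals were at background and all 4 TGF-β signals were above it. The folds were thus at least 3.15, 3.16, 2.94 and 2.30. TIMP1, a broad inhibitor whose transcript is induced by many growth factors, had a single probe set, with signals of 4950 without and 6052 with TGF-β. This is a 1.22-fold difference and was not called. TIMP4, the remaining gene of the family and no member, read 555 and 941, 1.70-fold higher and not called.

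The gelatinases MMP2 and MMP9, which cut denatured collagen and type IV collagen, were both called higher. MMP2 went from 719 to 1550, a 2.15-fold difference with a log2 fold change of 1.11 beside a spread of 0.26 at its brightness. Its other 2 probe sets were at background on both arrays, with signals of at most 6.89, and gave no fold. MMP9 had 1 probe set, which read 85.2 and 197, 2.31-fold higher. The log2 fold change of MMP9 was 1.21 and the spread at this lower brightness 0.49. With 50 added to every signal the MMP9 log2 fold change was 0.87, which is less than 2-fold. The rise of MMP2 ranked 269 and that of MMP9 ranked 212 among the genes with both signals above background.

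MMP10, or stromelysin 2, cuts proteoglycans, laminin and other matrix proteins and can activate other MMP precursors. Its only probe set read 3.804 without TGF-β, which is background, and 166 with it. The fold was therefore at least 3.62. MMP1, the interstitial collagenase, cuts the triple helix of fibrillar collagens. Its signal went from 7.52 to 66.7, the latter just above the background of its array. The fold was at least 1.45, and the mean of both signals was 37.1, under the filter. MMP7, or matrilysin, is made by epithelial cells. It read 1835 without TGF-β and 1926 with it, 1.05-fold, where the spread of log2 fold changes was 0.28.

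Of the membrane-anchored enzymes, MMP14, the activator of the MMP2 precursor, gave no single answer. Its brightest probe set read 338 and 406, a 1.20-fold difference. The second read 75.1 and 157, which is 2.09-fold higher. The third read 92.7 and 93.7, or 1.01-fold, and the last was at background on both arrays. By its brightest probe set MMP14 was not called. MMP24, another membrane-type MMP, went from 152 down to 80.2. Its log2 fold change was -0.92, a 1.89-fold lower signal that did not reach 2-fold, with a spread of 0.46. The second MMP24 probe set was at background on both arrays. The gene MMP24OS overlaps MMP24, and its 4 probe sets differed by between 1.01-fold and 1.19-fold. MMP24 was the only measured member with a lower signal in the TGF-β array, and its fall ranked 218 among the genes with both signals above background.

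**Figure D3:**
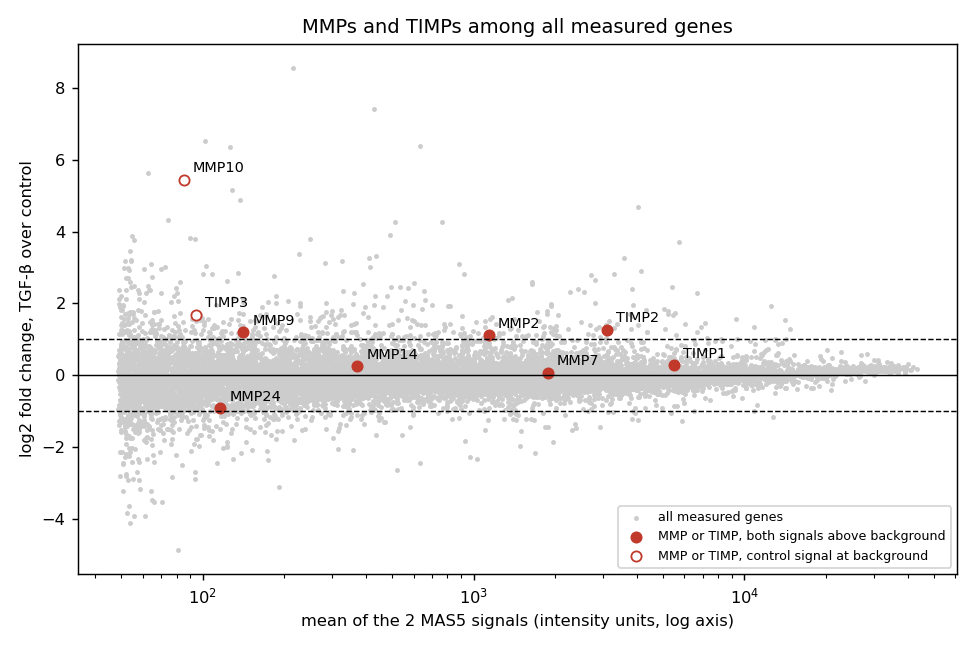
Log2 fold change of TGF-β over control (y axis) against the mean of the 2 MAS5 signals (x axis, intensity units on a log axis) for 12375 measured genes in grey and for the 9 measured members in red. Open red points had a control signal at background, dashed lines mark 2-fold, and MMP2, MMP9 and TIMP2 lie above the upper line, while MMP7, MMP14 and TIMP1 lie between the lines.

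The remaining members of the MMP family were looked at in the same way, with TIMP4. Of these 17 genes 9 were measured, 4 were called higher and none lower, and the median log2 fold change was 0.76. The median over all measured genes was -0.03, and 3.94% of them were called higher. MMP25 and MMP28 passed the filter only through the TGF-β array, so they had to differ, and of the 5 genes with both signals above background 2 were called higher, where 2.94% of such genes were. MMP3, or stromelysin 1, went from 286 to 613, 2.15-fold higher. With 50 added to every signal MMP3 was not called. MMP12, the macrophage elastase, read 55.1 and 225, 4.09-fold higher, and its control signal was just above background. MMP25 went from the control background to 119, at least 2.59-fold, and its other probe set was at background on both arrays. MMP28 went from the control background to 116 in its brightest probe set, at least 2.53-fold, and from 15.5 to 94.7 in another, at least 2.07-fold, but read 88.4 and 66.1 in the remaining kept one, 1.34-fold lower. MMP11 read 92.7 and 70.1, MMP17 114.6 and 70.4, MMP16 65.7 and 49.5, and MMP19 59.5 and 46.0, and none of these 4 was called. The TGF-β signals of MMP16 and MMP19 were at background, so these were at least 1.16-fold and at least 1.05-fold lower.

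In the order of protein-coding genes on chromosome 11, 9 MMP genes follow each other between TMEM123 and DCUN1D5. The order is MMP7, MMP20, MMP27, MMP8, MMP10, MMP1, MMP3, MMP12 and MMP13. The neighbours MMP10, MMP1, MMP3 and MMP12 each had a higher signal with TGF-β, as given above, although MMP1 was under the filter. MMP20, MMP27, MMP8 and MMP13 were at background on both arrays, so no change can be read for them. MMP7, at the end of the row, changed little. This grouping was noticed after the values had been seen. Most signals in the row were dim, and MMP7 and MMP3 alone had a control signal above 100.

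**Figure D4:**
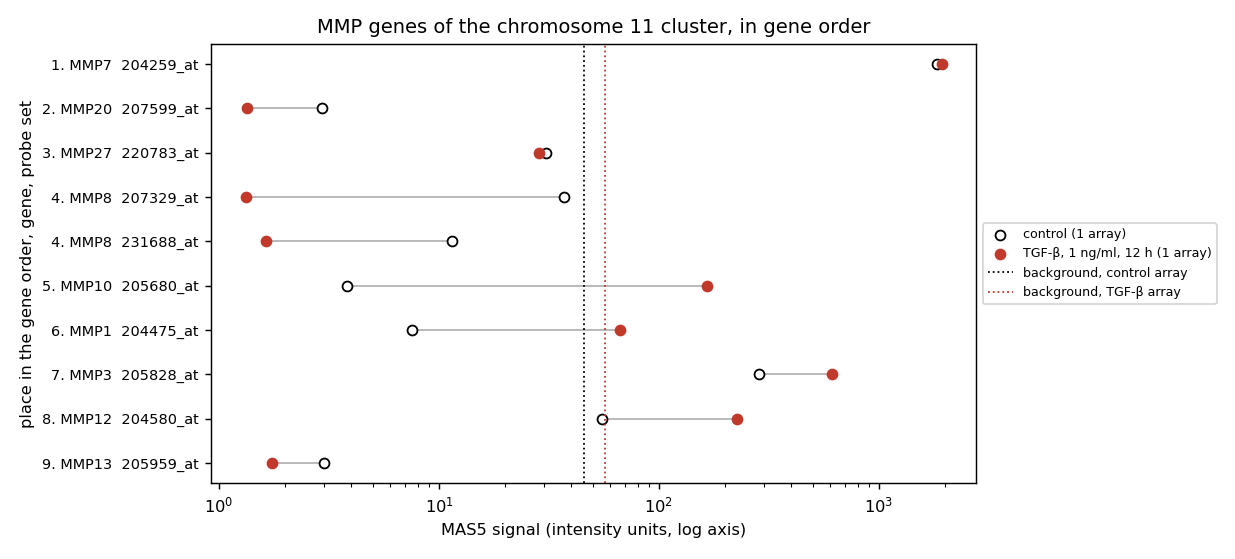
MAS5 signals (x axis, intensity units on a log axis) of the 9 MMP genes that lie next to each other on chromosome 11, in gene order from top to bottom, with open points for control and red points for TGF-β, 1 array each, with dotted lines at each array's background. MMP10, MMP1, MMP3 and MMP12 lie together in the order and shift to the right, and MMP7 at the top does not.

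Proteins that activate, bind or inhibit MMPs were taken as a further group of 35 genes, of which 26 were measured, 6 were called higher and none lower. The median log2 fold change was 0.20, beside -0.03 over all measured genes, of which 3.94% were called higher and 2.96% lower. Of the 25 with both signals above background, 6 were called higher and none lower, beside 2.94% and 1.35% of all such genes. PLAU, the urokinase that makes plasmin and so can start MMP activation, went from 7279 to 20966, 2.88-fold higher. Its receptor PLAUR read 1025 and 2584, 2.52-fold higher, and its 3 kept probe sets ranged from 1.68-fold to 3.19-fold. The integrin subunit ITGAV read 8522 and 17297, 2.03-fold higher. SERPINE2, a serine protease inhibitor, read 5444 and 10888, which is at the limit of 2-fold. The matrix proteins THBS1 and SPOCK1 were 5.85-fold and 5.41-fold higher, and the study picked both from these arrays, so neither is independent evidence of a direction. Genes that were not called included FURIN, a protease that activates MMP14, at 203 and 293, RECK, a membrane inhibitor of MMPs, at 387 and 451, and BSG, an inducer of MMPs, at 1336 and 1358. These 3 were chosen after their values had been seen.

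Of 35 transcription factors known to act on MMP and TIMP promoters, 30 were measured, 4 were called higher and 2 lower, with a median log2 fold change of 0.17. Over all measured genes 3.94% were called higher and 2.96% lower, and the median was -0.03. Of the 29 factors with both signals above background, 3 were called higher and 2 lower, beside 2.94% and 1.35% of all such genes. JUN, a subunit of AP-1, went from 3258 to 8818, and its 4 kept probe sets were between 2.71-fold and 3.66-fold higher. JUNB, another subunit, read 337 and 1271, 3.77-fold higher. FOS, which pairs with JUN proteins in AP-1, read 148 and 62.5, 2.36-fold lower, in its only kept probe set. Its TGF-β signal was just above the background of 56.6. FOSL1 read 668 and 466 and was not called. ETS2 was 2.52-fold higher, at 3933 and 9908, and its 2 kept probe sets were both called. SNAI2 went from background to 133, at least 2.90-fold higher. ETV1 was 2.33-fold lower by its brightest probe set, but only 1 of its 4 kept probe sets was at least 2-fold lower. Another kept probe set of ETV1 had a higher signal with TGF-β. FOSL1 was named after its value had been seen.

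Of 35 known substrates of MMPs, 25 were measured, 10 were called higher and 1 lower, with a median log2 fold change of 0.41. All 25 had both signals above background. Over all such genes 2.94% were called higher and 1.35% lower, and the median was -0.03. The collagen chains COL1A1, COL4A1, COL4A2, COL5A1 and COL7A1 were between 2.14-fold and 13.0-fold higher by their brightest probe sets. Probe sets disagreed for COL1A1, where 3 of 4 kept ones were at least 2-fold higher and the other was 1.17-fold higher, and for COL7A1, whose other kept probe set was 1.59-fold higher. HBEGF, a membrane-bound growth factor precursor, went from 238 to 839, 3.52-fold higher. SDC4, a cell surface proteoglycan, read 1479 and 3910, 2.64-fold higher. Fibronectin (FN1) was 2.63-fold and the laminin chain LAMB3 2.41-fold higher, and CCN2, a matricellular growth factor, was 9.69-fold higher. CDH1, the junction protein E-cadherin, was lower, at 1952 and 846, a 2.31-fold difference. COL1A1 and CCN2 were picked by the study from these arrays and also stand among the TGF-β responders, so they too are not independent evidence of a direction. FN1, LAMB3, COL4A2 and COL7A1 were named after their values had been seen.

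**Figure D5:**
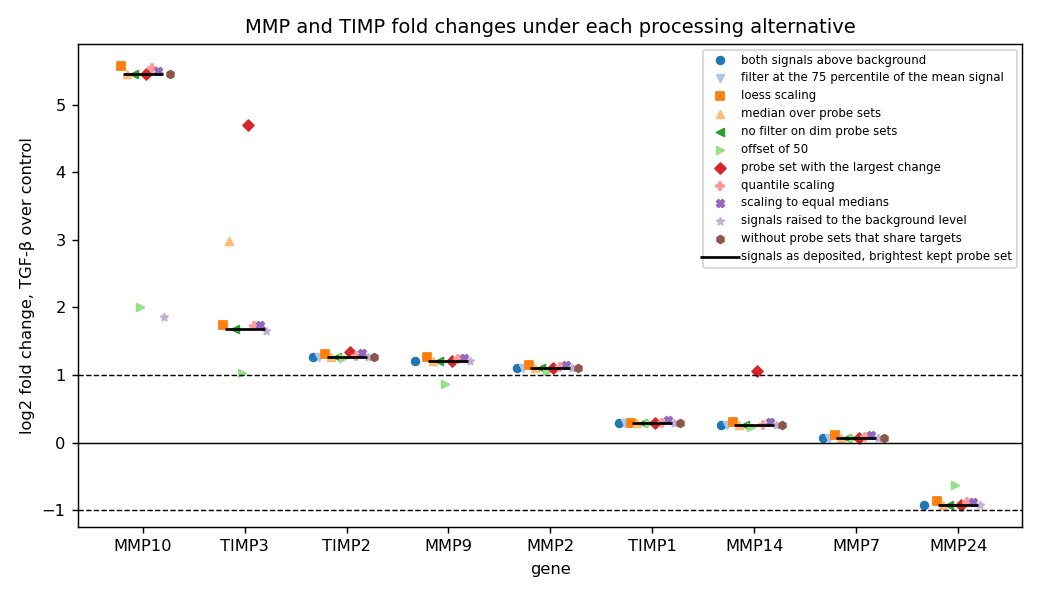
Log2 fold change of TGF-β over control (y axis) for the 9 measured members (x axis), with a black bar for signals as deposited and 1 symbol for each of 11 processing alternatives; dashed lines mark 2-fold. TIMP2 stays between 1.25 and 1.35 and MMP2 between 1.06 and 1.16, whereas MMP10 and TIMP3, whose control signals were at background, spread from 1.86 to 5.57 and from 1.03 to 4.70.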

How the data were processed

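RNA of A549 cells with and without TGF-β was hybridized to 1 Affymetrix array per condition, and the groups were taken from the treatment label. The values deposited by the authors are MAS5 intensities per probe set on a linear scale, and MAS5 is named without a version in the submitters' processing notes. The trimmed mean of each array, without 2% of the values at each end, was 500, so both had been scaled alike. For the genome build and any other setting, nothing was given in the sources used here. Intensities were used without further scaling.

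Probe sets with 1 gene symbol in the platform annotation (41091 of 54613 that are not controls) were named, with symbols updated through RefSeq gene identifiers of GRCh38.p14. The others, with more symbols or no symbol, were not used. Filter, background, fold and spread are defined with the results. Named were all members, every measured gene among the other MMPs and TIMP4, in each further list up to 6 genes called higher and 6 called lower, by size of change, with both signals above background, list genes with a signal at background as bounds, and genes said to be chosen later. With 2 arrays a pattern over conditions is a single difference, so no genes were named for a like pattern. The members and lists were chosen with earlier results of these data known. Nothing was tested between the arrays. Protein sequences were not used here.

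The alternatives were no filter, a stricter filter (mean signal of 349, percentile 75), signals raised to background, 50 added to each signal, rescaling by loess (span 0.3), quantiles or medians, a gene's probe set of largest change or the median of its probe sets, dropping probe sets named as hitting several targets (_s_at, _x_at, _a_at) and, added after the data had been seen, only genes with both signals above background. Python 3.11.15, numpy 2.4.6, pandas 2.3.3, statsmodels 0.14.6 and matplotlib 3.10.9 were used.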

Additional observations from a re-analysis of the deposited data

How the results depend on the processing

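The error between cultures is unknown, with 1 array each. Of 90 log2 fold changes of members under 11 alternatives, 84 moved by less than the spread over probe sets of like brightness, 6 moved by more and none changed sign. The 6 were MMP10 at 2.01 with the offset and 1.86 with signals raised to background (5.45 as deposited), MMP14 at 1.06 by the probe set of largest change (0.26), and TIMP3 at 1.03 with the offset, 2.99 with the probe sets' median and 4.70 with the most changed probe set (1.69). MMP2, MMP7, MMP9, MMP10, MMP24 and TIMP1 had 1 kept probe set each. For these genes the filters, the leaving out of probe sets and the choice among probe sets could not alter the fold. Part of the 84 was thus fixed in advance. The spread that MMP10 was set against was wide, at 2.09. MMP9 fell under 2-fold with the offset, at 0.87. The count of members called higher (5 of 9 measured) was 2 of 5 with the filter at the 75 percentile, 3 of 6 without shared-target probe sets and 3 of 7 with both signals above background, and the median of the members (1.11) was then 0.29, 0.70 and 0.29. The count was 4 of 9 with the offset, 6 of 10 without the filter and 6 of 9 with the probe set of largest change. MMP9, MMP24 and TIMP3 had no probe set left without the shared-target ones. No member was called lower under any of the 11 alternatives. Over all genes, 487 called higher became 2110 without the filter, 197 with the stricter filter and 295 with the offset, and 366 called lower became 2395, 63 and 134, and also 596 with the probe set of largest change, 204 with signals raised to background and 156 with both signals above background. Of the other MMPs and TIMP4, 4 called higher became 1 with the stricter filter (MMP3), 1 with the offset (MMP12) and 2 with both signals above background. Without the filter, 4 instead of none were called lower. Without the filter 1 activator or inhibitor and 2 substrates were called lower, and without shared-target probe sets 0 substrates and 0 TGF-β responders. Transcription factors called lower went from 2 to 1 with the stricter filter and the offset, where FOS was no longer called. They also went to 1 with the median over probe sets, where ETV1 was no longer called. Filters, floors, the offset and the leaving out of probe sets act by removing or damping dim signals or probe sets. For the other shifts the cause was not tested. Signal over background limits MMP1, MMP10 and TIMP3, whose control signals were at background.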

Other observations

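TIMP1, TIMP3 and TIMP4 overlap the synapsin genes SYN1, SYN3 and SYN2, in that order, in the RefSeq annotation. Of the synapsin genes, SYN3 was at background on both arrays in its 1 probe set, at 21.9 and 2.89, while the 4 probe sets of TIMP3 were above background with TGF-β. All 5 probe sets of SYN2 were at background on both arrays. SYN1 went from 8.91 to 98.4 in its brighter probe set, at least 2.15-fold higher, and was at background on both arrays in the other, whereas TIMP1 changed by 1.22-fold. Among MMPs under the filter, MMP15 went from 60.6 to the background, at least 1.07-fold lower, and MMP26 from 58.0 to the background, at least 1.03-fold lower, so no fall of any size can be read for either.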
